A study of Caenorhabditis elegans with 4 samples.

Results

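The regions described here are the NHR-237 binding regions on chromosome IV of Caenorhabditis elegans embryos. They were taken by chromosome name alone from the authors' combined list, and 252 of its 1679 regions lie on IV. NHR-237 was tagged with EGFP and Flag on the transgene wgIs228, written nhr-237:TY1 EGFP FLAG;unc119, in strain OP228 with the mutation unc119(ed3), so that anti-GFP antibodies could precipitate the crosslinked factor with its DNA. Animals were kept at 20 °C and embryos of a mixed male and hermaphrodite population were fixed in 2% formaldehyde. All samples share this strain and stage, with 2 ChIP samples and 2 input samples. The transgene was introduced by bombardment and outcrossed, and no untagged strain is part of the comparison. The labels do not say whether the ChIP replicates came from separate cultures. Their lists hold 1330 (replicate 1) and 2032 (replicate 2) regions on IV.

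NHR-237 belongs to the nuclear hormone receptors, transcription factors with a zinc-finger DNA-binding domain and, in most members, a domain that can bind small lipophilic ligands. The family is greatly expanded in nematodes. Chromosome IV is known for another feature, the loci of the 21U-RNAs, which are the piRNAs of C. elegans. They are made from many small transcription units, are loaded onto the Piwi protein PRG-1 and act in the germ line against foreign transcripts. In the RefSeq gene table, which is on another assembly (WBcel235) and was used here for names only, 14714 of 15363 genes with a 21ur name (95.8%) are placed on IV. The known 21U-RNA-rich stretches, from 4.5 to 7 Mb (the left stretch) and from 13.5 to 17.2 Mb (the right stretch), were set against the rest of the chromosome. A match between a region and a 21U-RNA gene, or any other gene, was not analysed, because no annotation of the regions' build was used. The same holds for the DNA sequence of the regions.

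The authors' pipeline gave each region its bounds, a score and a number in its name, here called the peak number. Coordinates are on WormBase WS220, per the file headers. Small peak numbers mark the best ranks: the 159 IV regions tied at the highest combined score of 3.35 had peak numbers up to 1112, and the 93 with a lower score began at 1133. Among the lower scores the 2 orders can differ: number 1137 had a score of 2.66 and number 1251 one of 2.70. Because 63.1% of the IV regions tie on the score, the peak number alone separates them. No read counts come with the lists, so the depth is unknown. Intervals below are 95% exact intervals (Clopper-Pearson for shares, Poisson for densities). They cover counting error only and treat regions as independent, which neighbouring regions may not be. No test was run over regions, which are not replicates.

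Binding regions on IV were somewhat sparser than on the other nuclear chromosomes as a group. The 252 combined regions amount to 14.4 per Mb (12.7 to 16.3) over the 17.4 Mb between the first and last base covered by any list. On the other 5 chromosomes there were 17.3 per Mb (16.4 to 18.2), from 10.8 on V to 23.4 on I. X, with 15.6 per Mb (13.8 to 17.6), was the nearest to IV, and the intervals of these chromosomes overlap. The replicate lists put IV at 76.3 per Mb (72.2 to 80.5) against 84.5 in replicate 1, and at 117 per Mb (112 to 122) against 129 in replicate 2. In each of the 3 lists IV thus stood below the others as a group, and in each V was sparser still.

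Along the chromosome, combined regions were spread over its whole length and, by complete bins of 1 Mb, were fewest between 15 and 17 Mb. All 17 complete bins of 1 Mb held at least 5 combined regions, with a mean of 14.5 ± 5.28 (SD over bins). The bin from 4 to 5 Mb held most, with 25, and the bins from 7 to 8 Mb and 11 to 12 Mb followed with 21 and 20. The fewest, 5, lay between 16 and 17 Mb, next to 7 between 15 and 16 Mb. The variance of the bin counts was 1.92 times their mean, within the range of the other chromosomes, from 0.801 on X to 4.15 on II. In the replicate 1 list the bin from 15 to 16 Mb was the emptiest complete one, with 31 regions against 96 in the fullest, and the bin from 16 to 17 Mb held 49. Replicate 2 had 63 between 15 and 16 Mb and 92 between 16 and 17 Mb, against 148 in its fullest bin. Over the 17 bins, counts of the replicate lists correlated with a Pearson's r of 0.86 (Spearman's rho 0.81). Combined counts correlated with replicate 1 at 0.68 and with replicate 2 at 0.32 (Spearman's rho 0.59 and 0.21). These are descriptions over bins of the same libraries.

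**Figure D1:**
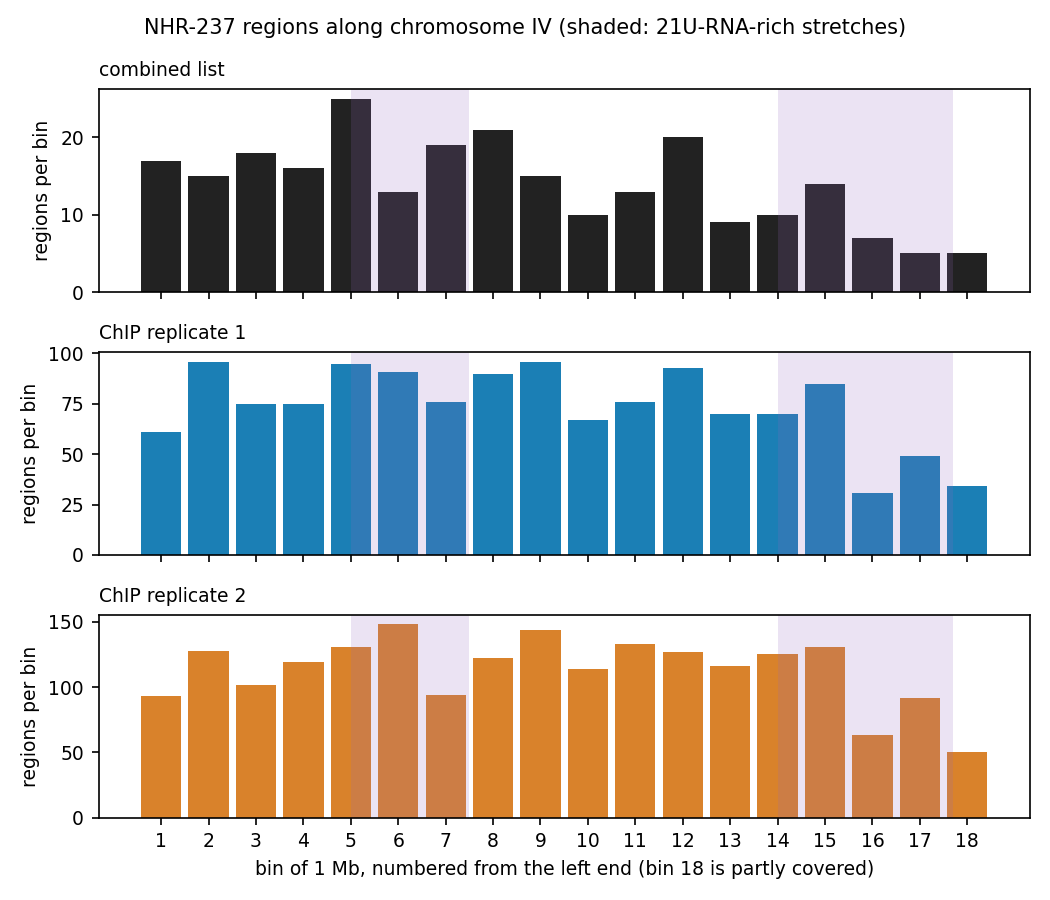
Number of regions in consecutive 1 Mb bins of chromosome IV (x axis, bins numbered from the left end) in the combined list and the list of each ChIP replicate (y axes, regions per bin; bars start at 0). Shading marks the 21U-RNA-rich stretches; bin 16, inside the right stretch, has 7 combined regions, 31 of replicate 1 and 63 of replicate 2.

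The 21U-RNA-rich stretches differed from each other. The left stretch held 45 combined regions, or 18 per Mb (13.1 to 24.1), and the right stretch held 32, or 8.65 per Mb (5.92 to 12.2), with intervals that do not overlap. Outside both there were 175 regions, or 15.6 per Mb (13.3 to 18.1). Expressed against length, the left stretch makes up 14.3% of the covered chromosome and held 17.9% of the regions (13.3 to 23.2), an interval that includes its share of length. That reading depends on the boundaries: with both ends moved outward by 250 kb the ratio of shares in the left stretch was 1.31 (1.02 to 1.64), which excludes 1, and with both moved inward it was 1.003 (0.684 to 1.40), against 1.25 (0.930 to 1.62) as placed. The right stretch makes up 21.2% and held 12.7% (8.85 to 17.5), an interval below its share of length. Being rich in 21U-RNA loci was thus not accompanied by one common level of NHR-237 regions.

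The right stretch was also the sparsest in both replicate lists, where the left stretch hardly differed from the rest. Replicate 1 had 82.8 regions per Mb in the left stretch (71.9 to 94.9), 52.4 in the right (45.3 to 60.4) and 82.7 outside both (77.4 to 88.1). Replicate 2 had 123 in the left stretch (109 to 137), 97.0 in the right (87.2 to 108) and 122 outside both (115 to 128). The margin was smaller in the longer lists: the share of regions in the right stretch was 0.599 times its share of length in the combined list, 0.688 in replicate 1 and 0.833 in replicate 2. The segment beyond the right stretch, from 17.2 Mb to the last covered base, is 0.291 Mb long. It held 4 combined regions (13.7 per Mb, 3.75 to 35.2), too few to set apart from any other segment. Replicate 1 had 27 regions there, or 92.8 per Mb (61.1 to 135), an interval just above that of the right stretch. Replicate 2 had 34, or 117 per Mb (80.9 to 163), an interval that overlaps that of the right stretch.

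**Figure D2:**
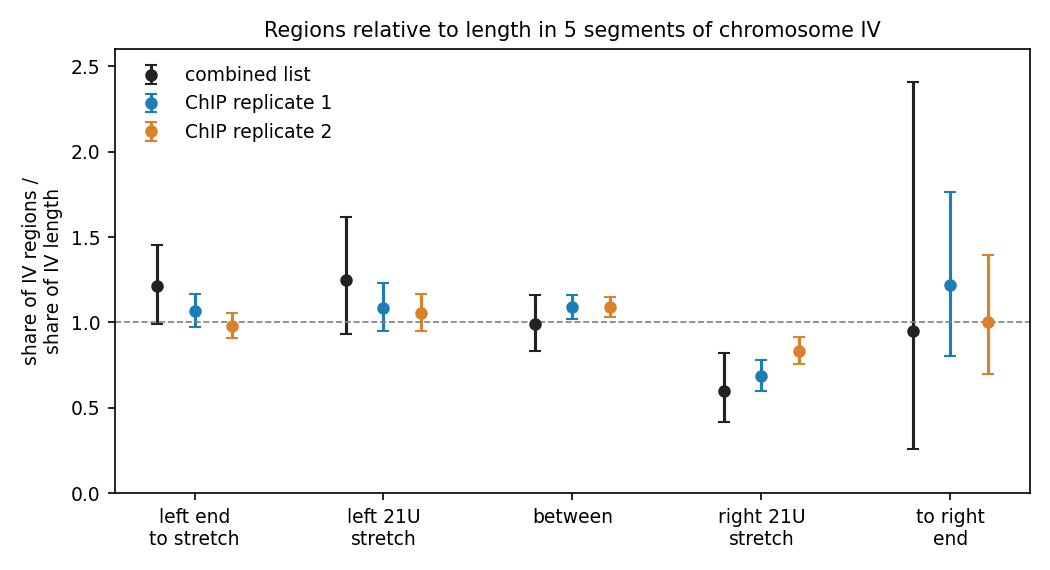
Share of the chromosome IV regions divided by share of the covered length (y axis, ratio) in 5 consecutive segments (x axis) for the combined list and both ChIP replicates; bars are 95% Clopper-Pearson intervals and the dashed line marks a ratio of 1. The right 21U-RNA-rich stretch lies below the line in all 3 lists, at 0.599, 0.688 and 0.833.

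Within the combined list the shortfall in the right stretch lay mostly among the later-ranked regions. In both replicate lists the share there was lower in the best 1679 regions than in the best 840. It was higher again later in the list, with intervals that overlap. Of the 124 IV regions with peak numbers above 840, the middle of the combined list, 9 lay in the right stretch, or 7.26% (3.37 to 13.3). Of the 128 with numbers up to 840, 23 did, or 17.97% (11.7 to 25.7), an interval that includes the 21.2% of length. For the better 50% of the list the ratio to length was thus 0.847 (0.554 to 1.21), and the shortfall no longer exceeded counting error. Taking as many of the best regions, 840, from a single replicate list gave 15.0% (9.14 to 22.7) in replicate 1 and 18.2% (11.8 to 26.2) in replicate 2, a check added after these values were seen. With the best 1679 regions of a single list, the length of the combined one, the shares were 12.7% (8.80 to 17.5) and 12.4% (8.62 to 17.2), again below the share of length. Later in the replicate lists the right stretch held 15.0% (12.9 to 17.3) of the replicate 1 regions and 18.4% (16.6 to 20.3) of those of replicate 2, closer to its share of length but still below it. The cause of the dependence on rank was not tested.

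The combined regions in the right stretch ranked well. Their median peak number was 535.5, against 979 in the left stretch, 945 between the stretches and 845.5 to the left of both. Of the 32, 25 had the highest score (78.1%, 60.0 to 90.7), and 23 (71.9%, 53.3 to 86.3) were in the better 50% of the list. In the left stretch 25 of 45 had the highest score (55.6%, 40.0 to 70.4). The replicate counterparts of these combined regions ranked earlier in the right stretch than in the left. Their median peak number was 523.5 in replicate 1 and 583.5 in replicate 2, against 1114 and 920 for the left stretch. The combined list was made from the replicates, so this order is in part built in. Over all regions of the replicate lists the order was the opposite, with medians of 4775 in the right stretch and 4161 in the left for replicate 1, and 7387 and 6292 for replicate 2. The intervals of the shares with the highest score overlap, and the difference in rank between the stretches was not tested.

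**Figure D3:**
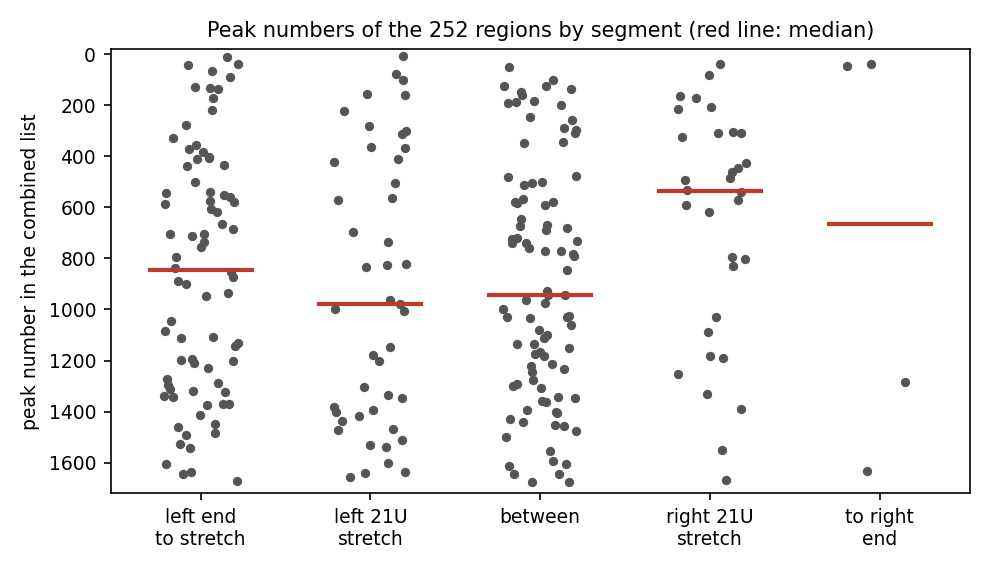
Peak number in the combined list (y axis, smallest at the top) of each chromosome IV region, grouped by segment (x axis; horizontal scatter is arbitrary); red lines are medians. The median is 535.5 in the right 21U-RNA-rich stretch and 979 in the left one.

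C. elegans autosomes are also divided by recombination into arms and a centre, where the centre recombines little and the arms more. With the centre of IV placed from 3.9 to 13 Mb, after rounded published map positions, the left arm held 17.1 combined regions per Mb (13.3 to 21.8), the centre 15.9 (13.4 to 18.7) and the right arm 9.13 (6.55 to 12.4). The arms therefore differed from each other, and the left arm was as densely covered as the centre. The right arm includes the whole right 21U-RNA-rich stretch, so that recombination domain and 21U-RNA content cannot be told apart there. As for that stretch, the better 50% of the combined list gave a ratio to length in the right arm of 0.849 (0.585 to 1.17), against 0.632 (0.463 to 0.832) for all IV regions.

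The longest stretches without a combined region lay in the right 21U-RNA-rich stretch. Neighbouring midpoints on IV were a median of 38.9 kb apart (quartiles 14.3 and 98.3 kb), and 13 of 251 distances exceeded 200 kb. The longest was 845 kb, from the region at 15646513 to 15647002 (peak number 801) to that at 16491432 to 16491921 (number 460). The next were 432 kb, from 15039431 to 15039920 (number 830) to 15471497 to 15471718 (number 81), and 393 kb, from 14070811 to 14071300 (number 447) to 14464136 to 14464369 (number 36).

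These gaps were not empty in the samples, and the regions in them ranked late. The choice of gaps in part builds this in, because well-ranked replicate regions mostly overlap a combined region. In decile 1 of peak number on IV, 99.2% of replicate 1 and 93.8% of replicate 2 regions did. Within the 845 kb gap replicate 1 listed 30 regions and replicate 2 listed 69, with 11 of each overlapping the other replicate. Their best peak numbers were 1268 and 2002, and their medians 5102 and 8945, where all IV regions had medians of 4321 and 6597. In the 432 kb gap there were 6 and 20 regions, with 1 in common. The 393 kb gap held 18 and 39, of which 10 and 13 overlapped the other replicate. As shares these were 36.7% and 15.9% in the longest gap, 16.7% and 5% in the next and 55.6% and 33.3% in the third. Over all of IV they were 57.2% and 39.0%, but that set includes regions that overlap a combined one, which the choice of gaps leaves out. Among IV regions without a combined one, 475 of replicate 1 overlapped replicate 2 and 569 did not. For replicate 2 these counts were 505 and 1238. Recurrence in the gaps was not tested against them. Mappability and repeat content of these intervals were not analysed here.

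At the other extreme, 47 of the 252 regions (18.7%) had a neighbouring midpoint within 5 kb, forming 22 groups. The same count over all chromosomes is not given here. Joining entries within 5 kb of each other, measured between their ends, left 224 on IV and 1424 in the whole list. The share on IV was then 15.7% (13.9 to 17.7), against 15.0% before joining, so close neighbours were not more frequent on IV. Of the 22 groups 8 lay in the left stretch, 3 in the right, 5 between them and 6 to the left of both. The largest groups had 3 regions each. One, at 385534 to 385739, 390382 to 390575 and 393337 to 393826, had peak numbers 403, 135 and 704. Another, at 4745394 to 4745883, 4748309 to 4748798 and 4749889 to 4750245, ended in the best-ranked region of the chromosome (numbers 1600, 1538 and 8). In both groups each member had a replicate counterpart of its own.

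The third group consists of overlapping entries, at 14033414 to 14033903, 14033656 to 14034145 and 14033858 to 14034347, with peak numbers 323, 214 and 1251. All 3 had the same best counterpart in each sample, number 158 in replicate 1 (14033647 to 14034110) and number 361 in replicate 2 (14033419 to 14033888). A further overlapping pair, at 4660256 to 4660745 (number 157) and 4660470 to 4660959 (number 1148), shared numbers 198 and 126 in the same way. Each of these 5 entries overlapped 2 regions in each sample, and only the best-numbered one was compared here. Merging overlaps leaves 249 of 252 regions on IV and 1636 of 1679 in the whole list. No other member shared its best counterpart.

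Peak numbers on IV ran from 8 to 1677, with a median of 831.5. Cut into 5 equal tiers by rank, the combined list held similar shares of IV regions throughout, with 14.6% in the best tier (10.99 to 18.8), then 15.2%, 13.4%, 15.8% and, in the last, 16.1% (12.3 to 20.4). Over the whole list its share was 15.0% (13.3 to 16.8). Among the first 100 regions it was 13% (7.11 to 21.2) in the combined list, 11% in replicate 1 and 14% in replicate 2. Of the first 25 combined regions 2 were on IV (8%, 0.984 to 26.03), as among the first 25 of each replicate.

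The best-ranked region, at 4749889 to 4750245 in the left stretch, was number 8 in the combined list, number 5 in replicate 1 and number 9 in replicate 2. Its midpoints in the replicates lay 0.5 bp apart. The second, at 654754 to 655121, was number 12 in the combined list, 17 in replicate 1 and 10 in replicate 2, with midpoints 12 bp apart. After these came a gap in the order down to number 36.

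The third to the eighth region lay at 14464136 to 14464369 in the right stretch (number 36; 37 in replicate 1 and 39 in replicate 2), 17278392 to 17278682 (number 37; 41 and 35), 1659121 to 1659387 (number 38; 49 and 30), 3294612 to 3294866 (number 40; 44 and 41), 17249728 to 17249986 (number 44; 43 and 63) and 13240548 to 13240800 (number 50; 67 and 42). Both samples placed each of these 8 within their first 67 regions. The regions at 17278392 and 17249728 are in the short segment at the right end.

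The regions ordered ninth to seventeenth had combined peak numbers from 67 to 128. To the left of both stretches were 1420204 to 1420451 (number 67), 2389094 to 2389277 (number 90) and 1094243 to 1094484 (number 128). In the left stretch were 6790561 to 6790705 (number 78) and 6323622 to 6324111 (number 102), and in the right stretch 15471497 to 15471718 (number 81). Between the stretches were 11082906 to 11083074 (number 99), 8432831 to 8433086 (number 123) and 11593409 to 11593898 (number 124). The samples diverged most at 11593409, which was number 54 in replicate 1 and 420 in replicate 2, and at 1094243, which was number 306 in replicate 1 and 74 in replicate 2. The third-best region of the left stretch, at 6323622, was number 214 in replicate 1 and 73 in replicate 2.

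The remaining members of the first 25 on IV had numbers from 131 to 165. They were 4445657 to 4446146 (number 131) and 390382 to 390575 (number 135) on the left, 11149512 to 11150001 (number 137), 7084681 to 7085170 (number 146) and 7039548 to 7039729 (number 158) between the stretches, and 4660256 to 4660745 (number 157) and 5183627 to 5184116 (number 159) in the left stretch. The last, 14959384 to 14959873 (number 165), is the third-best of the right stretch and was number 260 in replicate 1 and 127 in replicate 2. Of all 25, 13 lay in the arms and 12 in the centre, 5 in the left 21U-RNA-rich stretch and 3 in the right one. Their counterparts had numbers up to 306 in replicate 1 and up to 420 in replicate 2.

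Width followed rank. Most IV regions, 225 of 252 (89.3%, 84.8 to 92.8), had one width of 490 bp, and the other 27 were narrower, down to 123 bp. None was wider, whereas X held 9 wider regions. Of the first 25 IV regions 17 were narrower than 490 bp, against 10 of the other 227. The narrower regions had a median peak number of 123 and those of 490 bp one of 961. On the other chromosomes the share at 490 bp was 87.5% (85.7 to 89.2), an interval that overlaps that of IV.

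The narrowest regions lay at 1595968 to 1596090 (123 bp, peak number 408), 12724741 to 12724864 (124 bp, number 187) and 14610945 to 14611070 (126 bp, number 494). The widest tie at 490 bp, so that no 3 of them can be named. One narrow region ranked late, at 3384644 to 3384771 (128 bp, number 1272, which was 531 in replicate 1 and 2853 in replicate 2). It sits beside the region at 3385153 to 3385642 (number 1211). Of the 27 narrower regions, 11 had a counterpart below the usual width in both samples, 4 in replicate 1 alone, 4 in replicate 2 alone and 8 in neither, where the usual widths are 464 bp in replicate 1 and 470 bp in replicate 2. Among 224 regions of 490 bp, 1 had a narrow counterpart, in replicate 2.

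Nearly all IV regions were found in both samples. With an overlap of 1 bp or more, 251 of 252 had a counterpart in replicate 1 (99.6%, 97.8 to 100.0) and all 252 had one in replicate 2 (98.5 to 100.0). Over all chromosomes these shares were 99.4% and 99.7%, and 99.1% of combined regions had both, against 251 of 252 on IV. The combined list was made from these samples, so high shares are in part built in. The exception on IV was the region at 3368638 to 3369127, number 1197 in the combined list and number 466 in replicate 2 (3368644 to 3369113), which replicate 1 did not list.

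Counterparts of one region often differed in rank between the samples. Across the 251 IV regions with both, the replicate peak numbers gave 0.57 by Spearman's rho and 0.23 by Pearson's r, over regions that share libraries, and 165 (65.7%) were within a factor of 2 of each other. A factor of more than 5 separated 13 of them. Neither sample ranked the regions better as a rule: the smaller number was in replicate 1 for 123 and in replicate 2 for 127. The counterparts with the largest peak number in each sample, picked after their values were seen, belonged to the region at 620283 to 620772, number 728 in replicate 1 and 5349 in replicate 2, and to the region at 12558987 to 12559476, number 6802 in replicate 1 and 469 in replicate 2. Paired replicate midpoints were a median of 25 bp apart over all 251 regions, 12 bp for the first 25 and 28 bp for the later-ranked 50%.

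**Figure D4:**
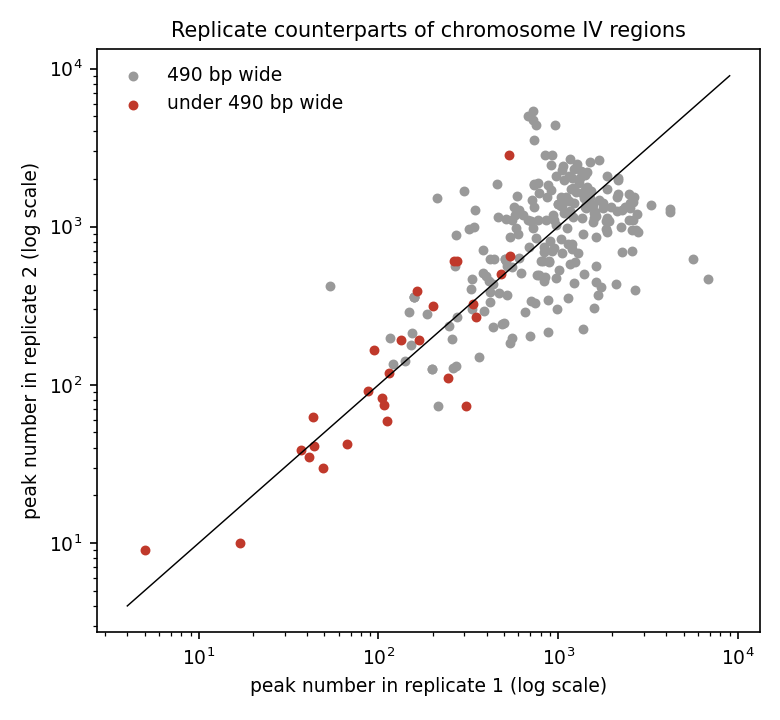
Peak number of the replicate 1 counterpart (x axis, log scale) and of the replicate 2 counterpart (y axis, log scale) for each of the 251 chromosome IV regions with both; red points are narrower than 490 bp and the line marks equal numbers. Points lie close to the line at small numbers and spread at large ones, where the extremes reach 6802 and 5349.

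Seen from the samples, IV regions of replicate 1 recurred more often than those of replicate 2, whose list is longer. Of the 1330 replicate 1 regions on IV, 761 overlapped replicate 2, or 57.2% (54.5 to 59.9), where the share over all nuclear chromosomes was 59.1%. Of the 2032 replicate 2 regions, 793 overlapped replicate 1, or 39.0% (36.9 to 41.2), beside 40.8% overall. Combined regions were overlapped by 286 of the replicate 1 regions (21.5%, 19.3 to 23.8) and 289 of those of replicate 2 (14.2%, 12.7 to 15.8), against 22.4% and 15.6% overall. IV was thus close to the background, and each of the 4 intervals includes the overall value. Across the 761 overlapping pairs, peak numbers gave 0.63 by Spearman's rho and 0.53 by Pearson's r, a description over regions of the same libraries.

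Recurrence fell with rank on IV as on the other chromosomes. In decile 1 of the replicate 1 list, the best ranks, all 118 IV regions overlapped replicate 2 (96.9 to 100), and 99.2% overlapped a combined region. In decile 5, 55.8% overlapped replicate 2 (47.4 to 64.0), and in decile 10, 34.3% (26.5 to 42.8). For replicate 2 the share fell from 97.8% (94.3 to 99.4) in decile 1 to 50.8% (43.5 to 58.0) in decile 3 and 20.9% (15.8 to 26.6) in decile 10. On the other chromosomes decile 10 gave 31.8% and 19.3%.

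**Figure D5:**
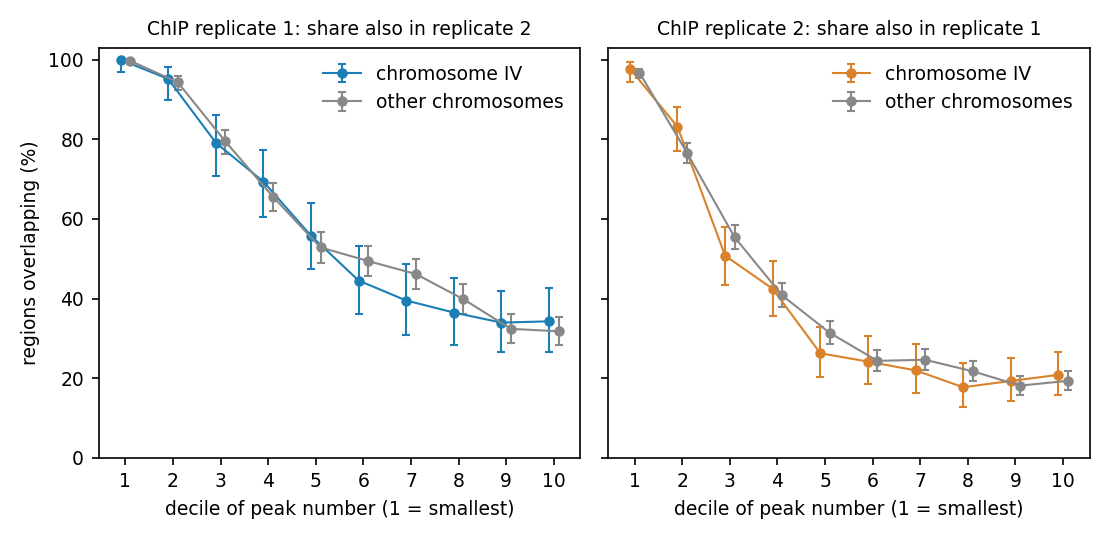
Share of the regions of each ChIP replicate that overlap a region of the other replicate (y axis, %) by decile of peak number (x axis), on chromosome IV (coloured) and on the other nuclear chromosomes (grey); bars are 95% Clopper-Pearson intervals. On IV the share falls from 100% to 34.3% in replicate 1 and from 97.8% to 20.9% in replicate 2, close to the grey points.

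Recurrence also differed along IV. In the right stretch 104 of 359 replicate 2 regions overlapped replicate 1, or 29.0% (24.3 to 34.0), against 42.1% (38.7 to 45.6) between the stretches and 38.8% (33.3 to 44.5) in the left stretch. For replicate 1 the shares were 50.5% (43.3 to 57.8), 61.5% (57.2 to 65.6) and 55.6% (48.5 to 62.4). The right stretch had the lowest share in both samples, with an interval apart from that between the stretches in replicate 2 and overlapping it in replicate 1. Replicate 1 regions were also fewer per Mb there, and the right-stretch regions of replicate 2 ranked later (median peak number 7387, against 6292 in the left stretch). The part of density and rank in this difference was not tested.

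Regions of one sample that lack a combined region were few in decile 1, on IV as elsewhere. There 99.2% (replicate 1) and 93.8% (replicate 2) of IV regions overlapped a combined one, against 99.4% and 93.9% on the other chromosomes. In decile 2 these shares were 74.2% and 41.6%, against 70.0% and 36.4%. In replicate 1 the best-ranked IV region without a combined one lay at 3050448 to 3050911 (number 275). It had an overlapping region numbered 2100 in replicate 2. It was followed by 9718370 to 9718833 (number 931; 4296 in replicate 2) and 10817031 to 10817494 (number 1052; 5781 in replicate 2). In replicate 2 they were 9931957 to 9932426 (number 643; 3245 in replicate 1), 12208953 to 12209422 (number 909) and 12078848 to 12079317 (number 938), the last 2 without any replicate 1 region. The best replicate 1 regions with no replicate 2 region were 16024099 to 16024562 (number 1268), inside the 845 kb gap, 12396763 to 12397226 (number 1368) and 10935317 to 10935780 (number 1421). The replicate 2 regions ranked best among those absent from replicate 1 were the exception named above (number 466) and the pair numbered 909 and 938.

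Sites found in both samples but not combined were more numerous than combined ones and ranked later. On IV they made up 475 replicate 1 regions (35.7%) with a median peak number of 4292, and 505 replicate 2 regions (24.9%) with a median of 5098. Over all nuclear chromosomes these shares were 36.8% and 25.3%, within the intervals for IV (33.1 to 38.4 and 23.0 to 26.8), so that IV was at the background here. Within the first 1679 peak numbers there were 28 of them in replicate 1 and 26 in replicate 2. IV held 244 and 249 of the first 1679 nuclear regions of these lists. The same count over all chromosomes is not given here.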

How the data were processed

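ChIP-seq region lists of 2 ChIP samples and 1 combined list were used; the input samples have no list analysed here. Regions are on WormBase WS220, per the file headers, and were called by the authors with SPP followed by IDR, per the deposited source field. Aligner, versions, thresholds and the way of combining: not given in the sources used here. The deposited score has no stated scale and was used, like the peak number, to order regions within a list. Both were also compared between overlapping regions of the replicates, whose full lists differ in length (8326 and 12698 regions). Neither the score nor other columns hold counts, so depth is unknown.

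Regions with chromosome IV in the first column were kept; a region belongs to the segment that holds its midpoint, and overlap means 1 bp or more. With several overlaps the smallest peak number was paired. Python 3.11.15, numpy 2.4.6, pandas 2.3.3, scipy 1.17.1 and matplotlib 3.10.9 were used, and the counting steps were checked on artificial regions. Named regions follow a rule: the first 25 on IV, the 3 best per stretch, regions lacking a counterpart, width extremes, longest gaps, overlapping entries and the largest groups within 5 kb. Stretches, members and lists were chosen with earlier results of these data known. Alternatives were other overlap rules, merged entries, moved boundaries, better-ranked regions and single replicate lists.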

Additional observations from a re-analysis of the deposited data

How the results depend on the processing

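Over 19 results, 84 alternative values were computed, and 64 stayed within the 95% interval of the main value. The right stretch and the right arm rose from ratios of 0.599 and 0.632 to 0.847 and 0.849 in the better 50% of the combined list. The right stretch stood at 0.857 without replicate 1 and at 0.707 without replicate 2 when 50% as many regions were taken, an alternative chosen after seeing the data. In the better 50% the share at 490 bp fell to 79.7%, since narrow regions rank well. Requiring 50% of both regions moved the counterparts found to 95.2% (replicate 1), 94.4% (replicate 2) and 92.9% (both). Leaving out a sample gave 100% without replicate 1 and 99.6% without replicate 2. The share of replicate 1 found in replicate 2 was 50.3% with 50% of both regions, 49.2% with midpoints within 200 bp, 68.8% in the better 50% of each list and 70.3% in the best 1000; from replicate 2 these were 34.0%, 32.9%, 45.7% and 73.0%. In the better 50% of each list, 42.0% and 28.3% overlapped a combined region. Spearman's rho was 0.68 for midpoints within 200 bp, and Pearson's r was 0.68 with the score. Some of these moves use smaller or better-ranked sets, and their cause was not tested further. A region narrower than 50% of its counterpart cannot meet the rule of 50% of both regions, wherever it lies. No paired analysis was possible because replicate numbers pair each ChIP sample with an input sample, and no region list of the inputs was analysed here.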
